A study of Mus musculus with 4 samples.

Results

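The tumour suppressor p53 is a transcription factor that stabilises after DNA damage, oncogene activity or culture stress and switches on genes of cell cycle arrest, cell death, DNA repair and its own decay. Its best known target is Cdkn1a, which encodes p21, an inhibitor of cyclin-dependent kinases (CDKs). The INK4 protein p16INK4a and p19ARF are made from Cdkn2a, and p15INK4b from its neighbour Cdkn2b. In fibroblasts taken from mouse embryos (MEFs) both loci are known to rise as cultures age. This account follows 32 genes of that network among the 39179 genes of the deposited table. These genes, and the lists of related genes below, were chosen with earlier results of these data known. That choice can bear on every share set beside all tested genes. All 32 were found by name and all 32 passed the filter on low counts, which 15283 genes passed in all. By role they are 7 genes of arrest, 12 of death, 4 of DNA repair, 5 that act on p53 or its ubiquitin ligase (called feedback here, with Trp53 itself) and 4 of other stress responses.

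The SON group held 2 libraries from BALB/c MEFs infected at passage 2 with a lentivirus that carries Nanos2, Dppa3 (the gene of Stella) and Pou5f1 (the gene of Oct4). The GFP control group held 2 libraries from BALB/c MEFs infected at passage 2 with a lentivirus of green fluorescent protein. In both groups puromycin at 2 µg/ml was added 72 h after infection and kept for 4 days, and 21 days of culture followed. The comparison asks what differs in fibroblasts that received the 3 genes, and since separate cultures are not stated in the labels, a p-value here reflects only how these libraries spread, which may be technical.

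Values are normalized counts, the reads of a gene over the size factor of its library. The libraries held 17365551 and 14680865 reads in genes for SON I and II, and 28924700 and 37097571 for GFP control I and II. The 3 delivered genes had between 201 and 329 reads in each SON library and 0 or 1 read in each GFP control library. Libraries differed within both groups: the chi-square per degree of freedom of their reads was 68.1 between SON I and SON II and 91.8 between GFP control I and II, while the 4 pairs across groups ran from 53.2 (SON II with GFP control II) to 173 (SON I with GFP control I), 3 of them above both within-group values. This measure grows with the number of reads, which differed between the libraries, so its values do not rank the pairs. Since libraries differed within both groups, results are given per library. All 9 fibroblast markers checked passed the filter, with a sum of 465502 and 400260 normalized counts in the SON libraries, against 709429 and 423167 in the GFP control libraries, and they went both ways. Both SON libraries lay above both controls for 3 of the 9, Thy1, Vim and Fn1 (33.3%, against 22.2% of all tested genes). They lay below both controls for 4 (44.4%, against 23.7%). Of these 4 the authors' deposited table calls 2, Pdgfra and Col1a2, lower, where it calls 2.59% of its genes lower.

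No gene of the network passed the test across all genes, and the shift of the network as a whole was small. The two-sided limma test ran on log2 of the normalized count plus 1, and a gene was called at a Benjamini-Hochberg adjusted p below 0.05. It called 0 of the 32 genes higher and 0 lower in SON, where it called 0.0327% of all tested genes higher and 0.0196% lower. By an unadjusted p below 0.05, 4 of the 32 were higher (12.5%, against 5.99% of all tested genes) and 1 was lower (3.12%, against 6.57%). That count moved when a library was left out, and so did the count over all tested genes. Counted tool by tool at an adjusted p under 0.05, edgeR called 0 of the 32, limma voom 0, and DESeq2, rerun on the reads recovered from the values, 1 higher and 1 lower (1.63% and 2.77% of its tested genes). The authors' deposited table, also made with DESeq2, lists the same pair: Tnfrsf10b higher and Dram1 lower, where that table calls 1.48% of its genes higher and 2.59% lower. With 2 libraries against 2, an exact permutation test over libraries cannot go below p = 0.3333.

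The log2 difference was positive for 24 of the 32 genes (75.0%), against 49.3% of all tested genes, and its median was 0.20, against -0.01 over all tested genes. By role the median was 0.30 for death, 0.28 for feedback, 0.19 for arrest, 0.18 for other stress responses and 0.14 for repair. These medians moved with the libraries. Without SON II the median was 0.09 for all 32 genes, 0.09 for arrest, 0.02 for feedback and -0.03 for repair, and without SON I it was 0.30 for all 32, 0.27 for arrest, 0.37 for feedback and 0.25 for repair. SON I minus GFP control I had a median of 0.09 over the 32 genes, and SON II minus GFP control II a median of 0.33. In bulk RNA, a change in the number of cells that make a transcript and a change in the amount per cell cannot be told apart.

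**Figure D1:**
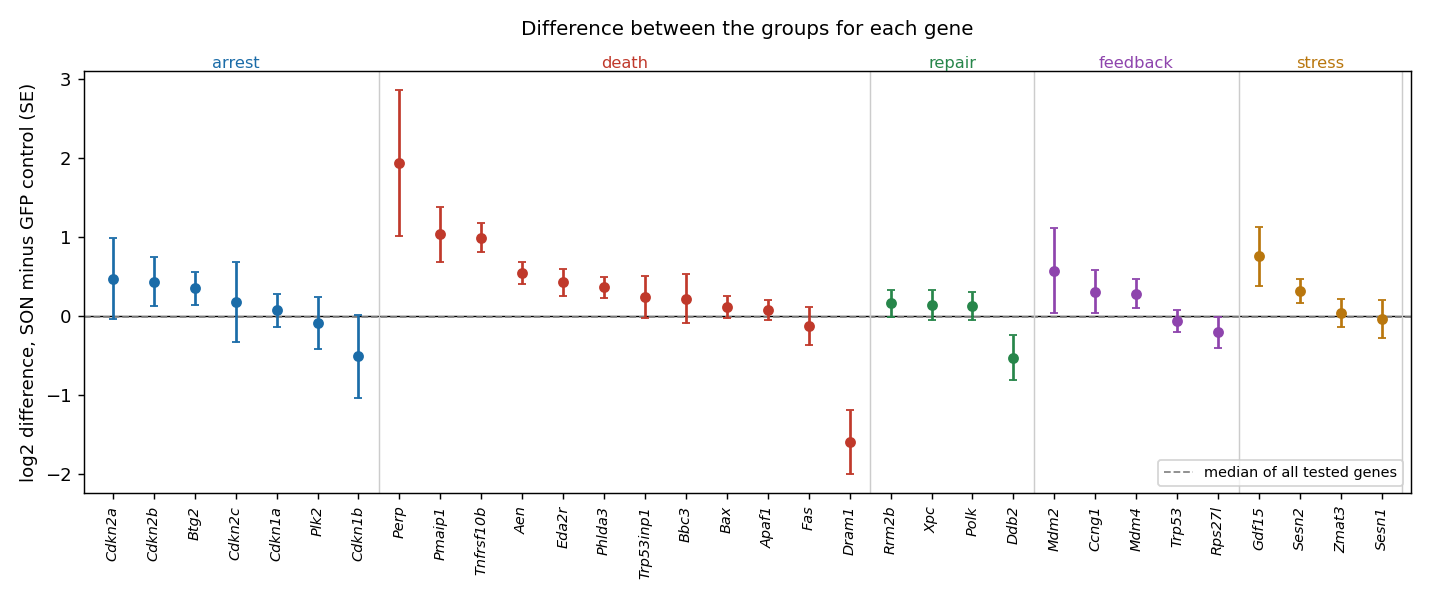
Log2 difference of SON minus GFP control for each of the 32 genes (vertical axis), grouped by role, with limma standard errors (n = 2 libraries per group). The death genes spread widest, with Perp at 1.93 and Dram1 at -1.59, and the dashed line marks the median of all tested genes at -0.01.

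In 12 of the 32 genes both SON libraries lay above both GFP control libraries (37.5%, against 22.2% of all tested genes), and in 2 both lay below (6.25%, against 23.7%). The 12 were 7 death genes (Bax, Pmaip1, Aen, Tnfrsf10b, Eda2r, Apaf1 and Phlda3), the arrest gene Btg2, the repair gene Rrm2b, the feedback gene Mdm4, and Sesn2 and Gdf15 of the stress genes. The 2 below were Dram1 and Ddb2. In the other 18 the groups overlapped.

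Levels were compared between genes as normalized counts per kb of exon. Ccng1, which encodes cyclin G1, was the highest of the 32 in both groups, at 7625 ± 1957 per kb in SON and 6094 ± 1159 per kb in the GFP control (SD, n = 2 each). Cdkn1a, ranked 2 in SON and 3 in the GFP control, was at 5062 ± 970 per kb in SON and 4764 ± 154 per kb in the GFP control. Rps27l, a ribosomal protein paralogue that binds Mdm2, lay in the same range, at 4573 ± 1009 per kb in SON and 5208 ± 186 per kb in the GFP control. Ccng1 lay above both others in each SON library, and Cdkn1a and Rps27l overlapped there. In the GFP control both Rps27l libraries lay above both Cdkn1a libraries. Rps27l was also above Cdkn1a in SON I (5287 against 4377 per kb) and was below it in SON II (3860 against 5748 per kb). The lowest of the 32 included Ddb2 at 23.8 ± 1.99 per kb in SON and 34.5 ± 5.17 per kb in the GFP control, and Gdf15 at 59.0 ± 23.1 per kb in SON and 33.4 ± 3.19 per kb in the GFP control, with Rrm2b between them in SON at 52.2 ± 2.53 per kb, against 46.8 ± 4.19 per kb in the GFP control. The Rps27l value is uncertain, because the gene shares sequence with Rps27 and with processed copies among which reads can be split.

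**Figure D2:**
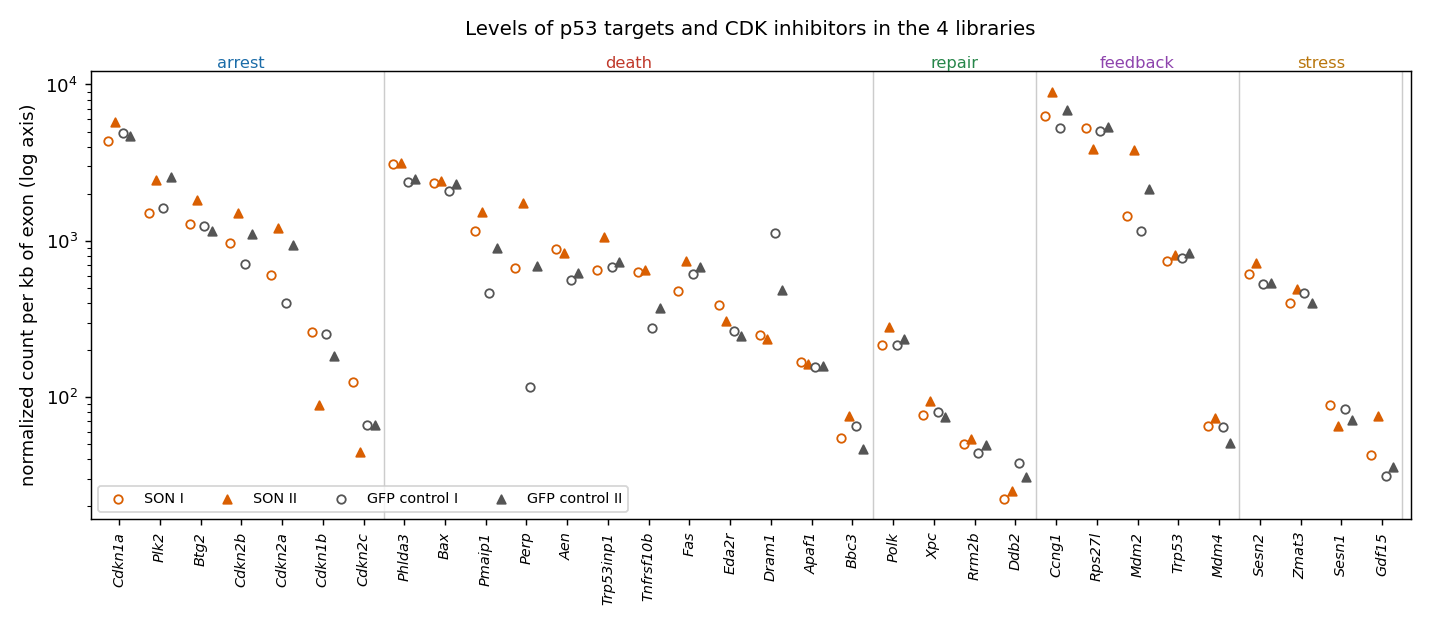
Normalized counts per kb of exon (log axis) of the 32 genes in SON I, SON II, GFP control I and GFP control II, ordered within each role by the SON mean. Ccng1, Cdkn1a and Rps27l sit at the top, the death genes from Phlda3 to Bbc3 span from 3125 to 65.3 per kb in SON, and for Mdm2, Perp, Cdkn1b and Cdkn2c the libraries of a group lie far apart.

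Promoter windows from RefSeq (GRCm38.p6, 250 bases before to 50 after each annotated start) were on hand for 24 of the 32 genes, 35 windows in all. They were searched for the p53 consensus decamer, which reads the same on both strands, and for a full site of 2 such decamers with a spacer of at most 13 bases. Only decamers that match the consensus at every base were counted, so sites with a mismatch were missed. The decamer was in 10 of the 35 windows (28.6%), against 8.36% of all 32851 windows. These 10 windows belong to 9 genes, and the windows of Aen overlap and share the same decamer. Most of the genes were named as targets of p53, beside CDK inhibitors and Trp53 itself, so this share describes the choice of genes. A full site without mismatch was in 1 of the 35 windows, the upstream start of Cdkn1a, against 0.0731% of all windows. Directly after the second capital decamer of Cdkn1a, tgacatgttc misses the consensus at its first base alone and stays in lower case. The capitals therefore mark exact matches and do not set the bounds of a site. A match is a run of letters and not a measured binding site. The stretches below, all upstream of the start and written 5′ to 3′ on the strand of the gene with the decamers in capitals, show the match in the gene of p21, in the regulators Mdm2 and Ccng1, in Trp53 itself and in the death gene Bax.
Cdkn1a, chr17:29090886-29090957, plus strand: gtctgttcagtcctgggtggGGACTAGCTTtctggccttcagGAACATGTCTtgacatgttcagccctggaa
Mdm2, chr10:117710915-117710964, minus strand: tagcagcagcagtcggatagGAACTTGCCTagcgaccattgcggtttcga
Ccng1, chr11:40755442-40755491, minus strand: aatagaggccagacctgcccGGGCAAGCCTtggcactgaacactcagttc
Trp53, chr11:69580264-69580313, plus strand: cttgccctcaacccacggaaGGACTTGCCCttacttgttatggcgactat
Bax, chr7:45467070-45467119, minus strand: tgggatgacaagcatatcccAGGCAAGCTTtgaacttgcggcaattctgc

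Among the arrest genes, the gene of p21 gave no difference larger than its spread. Cdkn1a (ENSMUSG00000023067, chromosome 17, 29090976 to 29100727, GRCm38) had 15551 and 20423 normalized counts in SON I and II, against 17314 and 16539 in GFP control I and II. The SON libraries lay on either side of both controls. The log2 difference was 0.07 ± 0.21 (SE, limma adjusted p = 0.919), so the interval of 1 SE runs across 0. Of its exon length, 7.68% overlaps a gene on the opposite strand, from which these reads without strand cannot be separated. Btg2, an antiproliferative cofactor of mRNA decay, had 3498 and 5016 normalized counts in SON, against 3396 and 3172 in the GFP control. SON I was close to the controls and SON II stood above them (log2 0.35 ± 0.21 SE, limma adjusted p = 0.558), and the difference was 0.09 without SON II and 0.61 without SON I. Plk2, a kinase of the centrosome cycle that p53 induces, had 6735 and 11001 in SON, against 7271 and 11442 in the GFP control, and library II was the higher in both groups.

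The INK4 genes Cdkn2a and Cdkn2b gave differences within the spread of their libraries. Cdkn2a, which encodes the CDK inhibitor p16INK4a and, in another reading frame, the Mdm2 inhibitor p19ARF, had 710 and 1415 normalized counts in SON, against 471 and 1099.7 in the GFP control. Counts per gene do not part the 2 products. Cdkn2b, which encodes p15INK4b, had 1338 and 2086 in SON, against 986 and 1539.6 in the GFP control. In both genes library II exceeded library I in both groups, by 0.99 in SON and 1.22 in the GFP control for Cdkn2a and by 0.64 in each group for Cdkn2b on the log2 scale. The group differences were 0.48 ± 0.51 for Cdkn2a and 0.44 ± 0.31 for Cdkn2b (SE, limma adjusted p = 0.753 and 0.619). With a library left out, they lay between -0.13 and 1.09 for Cdkn2a and between 0.12 and 0.76 for Cdkn2b, the lowest without GFP control I and the highest without GFP control II.

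The CDK inhibitors Cdkn1b and Cdkn2c set SON II apart. Cdkn1b, the gene of p27KIP1, had 1184 and 404 normalized counts in SON, against 1153 and 835 in the GFP control. Cdkn2c, the gene of p18INK4c, had 338 and 120 in SON, against 178 and 177 in the GFP control. SON I was at or above the controls and SON II was below them in both genes. The group differences were -0.50 ± 0.52 for Cdkn1b and 0.19 ± 0.51 for Cdkn2c (SE, limma adjusted p = 0.748 and 0.918). They lay at 0.27 and 0.93 without SON II and at -1.28 and -0.56 without SON I, and DESeq2 without SON I called Cdkn1b lower (adjusted p = 0.0128, between 0.0128 and 1.000 over all settings).

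The 5 genes with an unadjusted p under 0.05 in limma with all 4 libraries were death genes. Tnfrsf10b (ENSMUSG00000022074, chromosome 14, 69767472 to 69784411), which encodes the TRAIL death receptor of mouse, had 3443 and 3536 normalized counts in SON, against 1509 and 2029 in the GFP control. Both SON libraries stood above both controls. It was 1.97-fold higher, a log2 difference of 0.99 ± 0.19 (SE, limma adjusted p = 0.230). The authors' deposited table gives a log2 change of 0.94 (DESeq2 adjusted p = 0.00830). Rerun on the recovered reads, DESeq2 gave an adjusted p of 0.00744. Leaving out either SON library kept the call (DESeq2 adjusted p = 0.0448 both times), and leaving out GFP control I (1.000) or GFP control II (0.0625) ended it. The limma log2 difference ranged from 0.78 to 1.21 over these omissions.

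Dram1 (ENSMUSG00000020057, chromosome 10, 88322804 to 88379080), which encodes a lysosomal membrane protein that links p53 to autophagy, lay in the other direction. It had 766 and 721 normalized counts in SON, against 3414 and 1472 in the GFP control. The SON libraries were close to each other and below both controls, which themselves lay 1.21 apart on the log2 scale. The log2 difference was -1.59 ± 0.40 (SE, limma adjusted p = 0.271), and the authors' deposited table gives -1.56 (DESeq2 adjusted p = 0.00204). Without GFP control I the limma difference was -0.98, and DESeq2 lost the call without GFP control I (adjusted p = 0.826), without SON I (0.553) and without SON II (0.539). Over all settings the adjusted p lay between 9.72e-06, in DESeq2 without GFP control II, and 0.969. GFP control I also held the highest sum of the fibroblast markers, with the highest Col1a1, Col1a2, Col3a1, Pdgfra and Pdgfrb. The same library held the lowest Thy1, Vim and S100a4 of the 4 libraries. Markers of macrophages, which such cultures can hold, were checked beside Dram1: 6 of 8 passed the filter. All 6 had a negative limma log2 difference, where 49.3% of all tested genes had a positive one. In the authors' deposited table the log2 change was positive for Cd68 (0.257) and Ptprc (0.0279). It was negative there for Adgre1, Csf1r, Cd14 and Lyz2. The 8 summed to 297 and 846 normalized counts in SON, against 981 and 937 in the GFP control. Adgre1, Tyrobp and Fcer1g had 0 reads in SON I, and Ptprc had 4.09 normalized counts there, the floor of 3 reads. SON II, by contrast, held the highest Cd68 of the 4 libraries, with 39.5 and 198 normalized counts in SON, against 79.3 and 109.97 in the GFP control, and the highest Ptprc. The part of these cells in the Dram1 result was not tested.

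**Figure D3:**
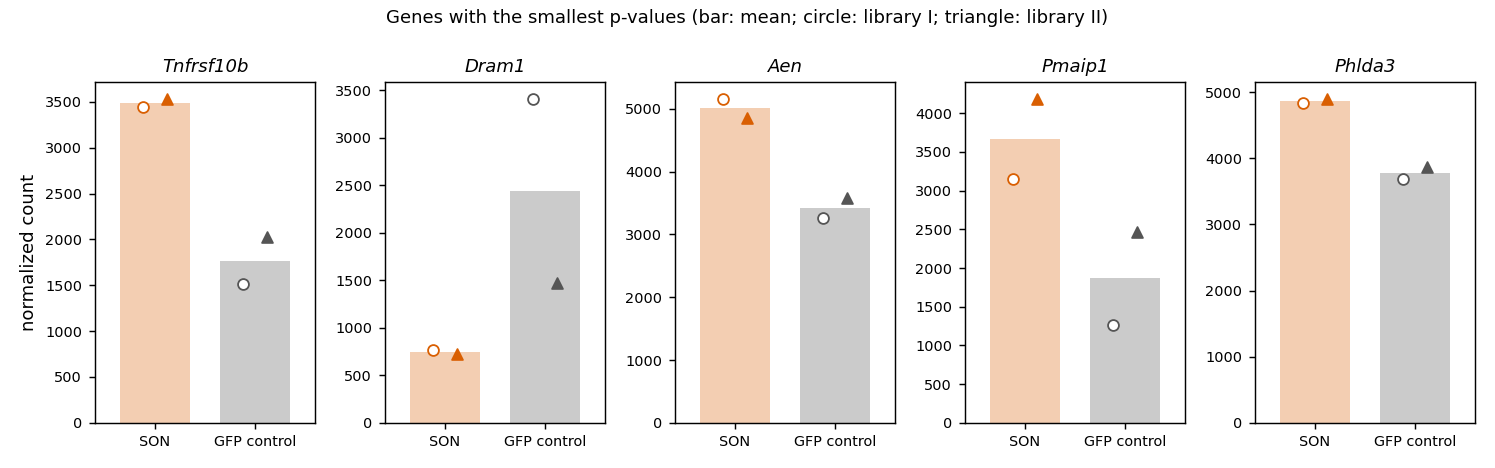
Normalized counts in each library of the 5 genes with an unadjusted limma p under 0.05, SON left of the GFP control, with bars at the group means (n = 2), circles for library I and triangles for library II. In each gene the groups do not overlap: Dram1 is lower in SON, and the other 4 are higher.

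Pmaip1, Aen and Phlda3 were the other death genes with an unadjusted p under 0.05. Pmaip1 (ENSMUSG00000024521, chromosome 18, 66458533 to 66465565), which encodes the BH3-only protein Noxa, had 3151 and 4189 normalized counts in SON, against 1269.5 and 2469 in the GFP control. The groups did not overlap, but the spread within each was wide (log2 1.04 ± 0.35 SE, limma adjusted p = 0.353), and the difference was 0.56 without GFP control I and 1.52 without GFP control II, where DESeq2 called it higher (adjusted p = 0.00875, between 0.00875 and 1.000 over all settings). Aen (ENSMUSG00000030609, chromosome 7, 78895854 to 78911209), a nuclease that promotes apoptosis, had 5165 and 4850.5 in SON, against 3266 and 3586 in the GFP control. Its libraries agreed closely within each group, and SON was 1.46-fold higher (log2 0.55 ± 0.14 SE, limma adjusted p = 0.274). Phlda3 (ENSMUSG00000041801, chromosome 1, 135766119 to 135769136), an inhibitor of the kinase Akt, had 4841 and 4903 in SON, against 3687 and 3872 in the GFP control. The SON libraries were higher by 1.29-fold with little spread (log2 0.37 ± 0.13 SE, limma adjusted p = 0.374). Whichever library was omitted, the log2 difference was 0.48 to 0.62 for Aen and 0.33 to 0.40 for Phlda3.

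Perp had the largest positive difference of the 32 genes and the widest spread. Perp (ENSMUSG00000019851, chromosome 10, 18845020 to 18857073), which encodes a membrane protein of desmosomes and an effector of apoptosis, had 1308 and 3430.0 normalized counts in SON, against 226 and 1351 in the GFP control. GFP control II was above SON I, so the groups overlapped (log2 1.93 ± 0.92 SE, limma adjusted p = 0.471). The difference was 0.65 without GFP control I and 3.22 without GFP control II, where DESeq2 called it higher (adjusted p = 1.44e-07, between 1.44e-07 and 1.000 over all settings). Of 6 epithelial markers 3 passed the filter, and the sum of the 6 was 660 and 968 normalized counts in SON, against 183 and 378 in the GFP control. The list includes Dsp, the gene of the desmosome protein desmoplakin, with 224 and 695 in SON, against 18.4 and 89.8 in the GFP control. Epcam and Cdh1, which define epithelium, had at most 11.8 and 8.81 normalized counts in any library. Krt19 had 295 and 197 in SON, against 90.2 and 120.07 in the GFP control, and Krt18 had 132 and 52.9 in SON, against 59.3 and 146 in the GFP control. The authors' deposited table calls Dsp and Krt19 higher (DESeq2 adjusted p = 0.00130 and 0.0377) and does not call Krt18. That is 66.7% of the 3 that passed, where the table calls 1.48% of its genes higher. Krt8 had at most 11.9 normalized counts in any library, and its mean and that of Krt18 were lower in SON. Of the 3 that passed, Dsp was above library I in SON II as Perp was, and Krt18 and Krt19 were below, and the part of such cells in the Perp values was not tested.

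Of the other death genes Eda2r had the largest difference. Eda2r, a receptor for ectodysplasin, had 2287 and 1813 normalized counts in SON, against 1564 and 1458 in the GFP control, and the groups did not overlap (log2 0.43 ± 0.17 SE, limma adjusted p = 0.398). Bax, which opens the outer mitochondrial membrane, had 3714 and 3819 in SON, against 3277 and 3665 in the GFP control, a difference of 0.12 ± 0.14 on the log2 scale (limma adjusted p = 0.772). A gene on the same strand overlaps 12.2% of the exon length of Bax. Apaf1, the scaffold of the apoptosome, was the steadiest, with 1511 and 1472 in SON, against 1403 and 1421 in the GFP control (log2 0.08 ± 0.13 SE). Trp53inp1, a stress protein of autophagy and death and the death gene with the most reads, had 4212 and 6898 in SON, against 4375 and 4747 in the GFP control, so that SON II stood above the other 3 libraries. The death receptor Fas (log2 -0.12 ± 0.24 SE) and Bbc3, the gene of the BH3-only protein Puma (log2 0.22 ± 0.31 SE), overlapped between the groups.

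Repair genes lay close to 0, and Ddb2 was the exception in direction. Ddb2, which recognises ultraviolet damage, had 61.4 and 69.0 normalized counts in SON, against 104 and 84.4 in the GFP control. Both SON libraries were lower (log2 -0.52 ± 0.29 SE, limma adjusted p = 0.525), but the gene shares 23.8% of its exon length with Acp2 on the opposite strand, and the source of those reads is uncertain. Rrm2b, the p53-induced subunit of ribonucleotide reductase, had 461 and 494 in SON, against 400.1 and 454 in the GFP control (log2 0.16 ± 0.17 SE). A gene on the opposite strand overlaps 8.04% of its exon length. Polk, the translesion polymerase kappa, had 1199 and 1551 in SON, against 1190.2 and 1306 in the GFP control. Xpc, a damage sensor of nucleotide excision repair, overlapped between the groups as Polk did (log2 0.14 ± 0.19 SE for Xpc and 0.13 ± 0.18 SE for Polk).

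Of the feedback genes, Trp53 gave a difference within its SE and Mdm2 a wide spread. Trp53 (ENSMUSG00000059552, chromosome 11, 69580359 to 69591873) had 2988 and 3263 normalized counts in SON, against 3143 and 3363 in the GFP control, a log2 difference of -0.06 ± 0.14 (SE, limma adjusted p = 0.902). The level of the transcript does not report the level of the protein, which is set largely by its decay. Mdm2 (ENSMUSG00000020184, chromosome 10, 117688875 to 117710758), the ubiquitin ligase that destroys p53 and is itself a target, had 7319.5 and 19296 in SON, against 5849 and 10848 in the GFP control. SON II was far above the other libraries, and SON I lay between the 2 controls (log2 0.58 ± 0.54 SE, limma adjusted p = 0.712). The Mdm2 difference was -0.12 without SON II and 1.28 without SON I, where DESeq2 called it higher (adjusted p = 0.0377, between 0.0377 and 1.000 over all settings).

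Ccng1, which recruits a phosphatase to Mdm2, had 21920.4 and 31640 normalized counts in SON, against 18525 and 24279 in the GFP control. Library II was the higher in both groups (log2 0.31 ± 0.27 SE, limma adjusted p = 0.691), and the difference was 0.048 without SON II and 0.58 without SON I. Mdm4, a partner of Mdm2 that masks the activation domain of p53, had 974 and 1094 in SON, against 950.5 and 755 in the GFP control, and the SON libraries were just above the higher control (log2 0.28 ± 0.18 SE, limma adjusted p = 0.577). Rps27l overlapped between the groups (log2 -0.20 ± 0.19 SE).

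Among the other stress genes, Gdf15 and Sesn2 were higher in both SON libraries. Gdf15, a secreted stress factor, had 79.1 and 139.5 normalized counts in SON, against 57.6 and 66.0 in the GFP control (log2 0.76 ± 0.37 SE, limma adjusted p = 0.481). SON II was the highest library, and the difference was 0.35 without it and 1.17 without SON I. Sesn2, a sestrin that restrains the growth kinase mTORC1, had 2124 and 2510.4 in SON, against 1829 and 1881 in the GFP control (log2 0.32 ± 0.15 SE, limma adjusted p = 0.468). Zmat3, an RNA-binding target of p53, had 4594 and 5658 in SON, against 5327 and 4599 in the GFP control, and Sesn1 overlapped as well (log2 0.04 ± 0.18 SE for Zmat3 and -0.03 ± 0.24 SE for Sesn1).

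Many of the 32 genes differed as much within a group as between groups. SON II was above SON I in 24 of the 32 (75.0%, against 47.5% of all tested genes), and GFP control II above GFP control I in 20 (62.5%, against 48.2%). In 17 genes library II was the higher in both groups (53.1%, against 25.2% of all tested genes). These 17 include Mdm2, Ccng1, Cdkn2a, Cdkn2b, Plk2, Perp and Pmaip1. The largest gaps between the SON libraries were those of Mdm2 and Perp, at 1.40 and 1.39 with SON II higher, and of Cdkn1b and Cdkn2c, at -1.55 and -1.48 with SON II lower, all on the log2 scale.

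Genes of cell division set the libraries apart in another way, lower in library II within SON and higher in library II within the GFP control. The list holds 20 genes that the DREAM repressor complex, which p21 engages, is known to silence. Of the 20, 0 passed limma in either direction, 0 reached an unadjusted p of 0.05, and the median log2 difference was 0.04. DESeq2 with all libraries called 0 as well. SON II was below SON I in 19 of the 20, at a median of -1.85 for SON II minus SON I on the log2 scale, and GFP control II was above GFP control I in all 20, at a median of 0.52 for GFP control II minus GFP control I. The 20 genes summed to 27870 and 8778 normalized counts in SON, against 12452 and 17086 in the GFP control, so SON I held the highest sum and SON II the lowest. Ccna2, the cyclin A2 gene, had 1479 and 248 in SON, against 530 and 757 in the GFP control. The 19 exclude E2f1, with 1160 and 1304 in SON, against 991 and 1108 in the GFP control. Set against the GFP control library of the same numeral, the median log2 difference of the 20 was 1.27 for SON I and -1.14 for SON II. The level of Cdkn1a was 20423 in SON II and 15551 in SON I, and the part of cell division in the spread of the 32 genes was not tested.

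**Figure D4:**
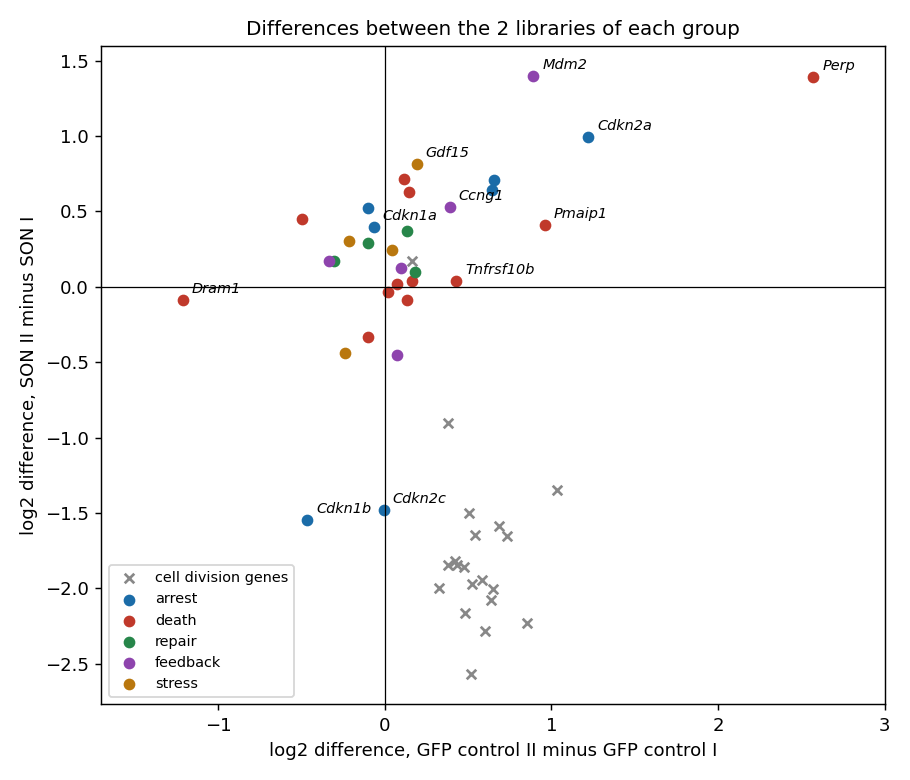
Log2 difference between library II and library I within SON (vertical axis) and within the GFP control (horizontal axis) for the 32 genes, coloured by role, and for 20 cell division genes (crosses). Mdm2, Perp and Cdkn2a lie toward the upper right, higher in library II of both groups, while the cell division genes, with 1 exception, lie below 0 in SON and right of 0 in the GFP control.

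The list called CDK partners here holds CDKs and cyclins on which these inhibitors act. It also holds Rb1, Rbl1, Rbl2, Skp2, the inhibitors Cdkn1c and Cdkn2d, and Bmi1 and Cbx7. The list gave 2 calls in the authors' deposited table, both D-type cyclins. That is 12.5% of the whole list called higher, where the table calls 1.48% of its genes higher. Of 16 partner genes, limma called 0 in either direction (3 of 16 higher, 18.8%, against 5.99% of all tested genes, and none lower, against 6.57%, by the unadjusted p), with a median log2 difference of 0.15. DESeq2, rerun, called 2 higher, against 1.63% of its tested genes. Ccnd1, the gene of cyclin D1, had 6441 and 11675 normalized counts in SON, against 2260.1 and 3976 in the GFP control (log2 1.53 ± 0.39 SE, limma adjusted p = 0.274, and adjusted p = 0.00600 in the authors' deposited table). Ccnd2, the gene of cyclin D2, had 26471 and 24033 in SON, against 15234 and 13702 in the GFP control (log2 0.80 ± 0.18 SE, limma adjusted p = 0.263, and adjusted p = 0.0118 in the authors' deposited table). Both SON libraries were above both controls in each. Rb1, the retinoblastoma gene, was the third with an unadjusted p under 0.05 (log2 0.51 ± 0.17 SE). The CDK inhibitor Cdkn1c, the gene of p57KIP2, had 160 and 167 in SON, against 479 and 213 in the GFP control (log2 -0.96 ± 0.41 SE, limma adjusted p = 0.430).

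Of 30 other genes reported as targets of p53, 28 passed the filter, and 21 of the 28 were positive (75.0%, against 49.3% of all tested genes), with a median log2 difference of 0.39. Limma called 0 of them in either direction (8 of 28 higher, 28.6%, and none lower by the unadjusted p, against 5.99% and 6.57% of all tested genes). The authors' deposited table calls 3 higher (10.7%, against 1.48% of its genes): Cd80, Notch1 and Ccnd1, the last of which is also among the CDK partners. DESeq2, rerun, called 3 higher too, against 1.63% of its tested genes. Cd80, a ligand that costimulates T cells, had 477 and 617 normalized counts in SON, against 151 and 228 in the GFP control (log2 1.54 ± 0.28 SE, limma adjusted p = 0.230, and adjusted p = 6.48e-04 in the authors' deposited table). Notch1, the receptor, had 485 and 375 in SON, against 215 and 188 in the GFP control (log2 1.08 ± 0.22 SE, limma adjusted p = 0.249, and adjusted p = 0.0125 in the authors' deposited table). Gadd45a, a damage-response gene that p53 induces, had 233 and 848 in SON, against 606 and 599 in the GFP control, so the SON libraries fell on either side of the controls.

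Of 14 kinases, ligases and cofactors that act on p53, neither limma nor the authors' deposited table called any, with 4 of 14 higher (28.6%, against 5.99% of all tested genes) and none lower (against 6.57%) by the unadjusted limma p and a median log2 difference of 0.23. The kinases Atr and Atm, which signal DNA damage to p53, were among the 4. Atr had 661 and 645 normalized counts in SON, against 464 and 465 in the GFP control (log2 0.49 ± 0.15 SE, limma adjusted p = 0.330). Atm had 565 and 602 in SON, against 434 and 421 in the GFP control (log2 0.45 ± 0.16 SE, limma adjusted p = 0.372). The other 2 were Ppp1r13l, which encodes the p53 inhibitor iASPP, and the kinase Hipk2, at log2 differences of 0.75 ± 0.24 and 0.92 ± 0.34 (SE).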

How the data were processed

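Per the labels' protocols, libraries were made with a TruSeq mRNA kit (v2) that does not keep the strand. Per the submitters' processing notes STAR 2.4.0j, TopHat2 2.0.11, DESeq2, Subread, featureCounts, HTSeq 0.5.3p3 and CASAVA 1.8.1 were used with GRCm38 (mm10), with no roles given. The gene table was deposited as a signal, reads divided by 1 size factor per library (0.733 and 0.681 in SON, 1.20 and 1.68 in the GFP control). Per the file headers it also holds the authors' mean signal, log2 fold change, Wald statistic (a score), p-value and adjusted p. Dividing each deposited value by its library's smallest step gave whole reads for 100% of values within a tolerance of 0.01. The floor of 3 reads was 4.09 and 4.41 normalized counts in SON, and 2.51 and 1.78 in the GFP control, and covers counting error only.

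Groups and numerals came from the sample titles. Limma 3.58.1 (R 4.3.3) was run with a trend on log2 of the value plus 1, after filterByExpr of edgeR 4.0.16. Alternatives were pseudocounts of 0.1 and 10, no filter, 1 CPM in 2 libraries, TMM and upper-quartile factors, edgeR, DESeq2 1.42.0, voom, a replicate block and each library left out. The fits were run on simulated counts to check that they return the size and sign of set changes. The simulation gave every gene the same dispersion and no shift between libraries of a group. It therefore checks the code and does not show how the fits perform on these libraries. Exon lengths, positions and overlaps came from GENCODE M21 (GRCm38), and the authors' own annotation is not stated in the labels. The genes and lists were chosen with earlier results of these data known. The values of every library are given for genes called, with an unadjusted p under 0.05 or with separated groups, and for the gene with the most reads in each role. Others were added after their values were seen. The 4 columns of samples in the deposited table of repeats were not used here.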

Additional observations from a re-analysis of the deposited data

How the results depend on the processing

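No gene of the 32 was called by limma under any planned setting of that tool, by edgeR or by voom. DESeq2 called 1 higher and 1 lower with all libraries, and with a library left out (chosen after seeing the data) 0 to 2 higher and 0 to 1 lower. Over all genes limma called 5 higher and 3 lower. Pseudocount 0.1 gave 3 higher, voom 3 higher and 1 lower, the replicate block 7 lower, and DESeq2 224 higher and 381 lower. With a library left out limma called 0 to 8 higher and 0 to 24 lower, and DESeq2 17 to 306 higher and 33 to 332 lower. The counts of other p53 targets in DESeq2 were 3 higher with all libraries, and between 0 and 3 higher and 0 and 2 lower with a library left out. Those of the CDK partners were 2 higher, and between 0 and 3 higher. The cell division genes gave between 0 and 7 higher and between 0 and 4 lower, and the kinases and cofactors between 0 and 1 higher.

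The replicate block moved no gene of the 32 past the threshold. Its unadjusted p was under 0.05 for 8 of the 32 higher and 1 lower. Of all 15283 tested genes, 1111 were higher and 1152 lower by that p, against 916 and 1004 without the block. Among the 32 genes the block added Perp, Eda2r, Cdkn2a, Cdkn2b and Mdm2 (0.00167, 0.0370, 0.0345, 0.0296 and 0.0335 in limma) and dropped Phlda3 (0.0521). The numerals were not shown to pair the libraries: across genes the differences I minus II of the groups correlated at 0.218, and only 2 pairs exist. With a library left out, in limma or DESeq2, the median log2 difference lay between 0.075 and 0.33 for arrest, 0.22 and 0.41 for death, -0.037 and 0.25 for repair, 0.015 and 0.37 for feedback and 0.14 and 0.31 for stress genes. The sign turned with a library left out in 15 genes, whose log2 difference lay between -0.13 and 0.27 for Cdkn1a, -1.30 and 0.27 for Cdkn1b, -0.15 and 1.18 for Cdkn2a, -0.57 and 0.93 for Cdkn2c, -0.48 and 0.29 for Plk2, -0.026 and 0.48 for Bbc3, -0.45 and 0.19 for Fas, -0.12 and 0.60 for Trp53inp1, -0.0090 and 0.29 for Xpc, -0.066 and 0.32 for Polk, -0.13 and 0.0050 for Trp53, -0.20 and 1.28 for Mdm2, -0.44 and 0.022 for Rps27l, -0.26 and 0.19 for Sesn1 and -0.12 and 0.19 for Zmat3. The cause was not tested. No other setting turned a sign, and the remaining 17 genes kept theirs.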
